A study of Mus musculus with 37 samples.

Results

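The cytochromes P450 of families 1 to 3 were examined in the livers of mice given HFPO-DA. All genes of these families that were listed on the panel were taken, by their symbols, with the Cyp2b genes left out. This gave 56 genes, measured by 80 probes, of 21450 gene symbols and 30146 probes in all. Where a gene had several probes, the probe with the highest total count over all mice was read. Of the 56 genes, 45 had enough counts to be tested and 11 did not.

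Livers came from 37 wild-type mice of the outbred CD1 stock, Crl:CD1(ICR), that received HFPO-DA, a perfluorinated ether acid, or the deionized water vehicle by daily oral gavage in a reproduction and developmental toxicity study. The control groups held 5 males and 5 females, and the groups at 0.1 mg/kg per day the same. At 0.5 mg/kg there were 5 males and 4 females, and at 5 mg/kg there were 4 of each sex. Males were given 84 to 85 doses, through the end of a mating period. Females were given 53 to 65 doses, through lactation day 20 or 21, so the females had been pregnant and were nursing while the males were not. Males were also younger when dosing began, at 6 weeks against 11 weeks. A difference between the sexes in these data therefore cannot be told apart from age, length of dosing, mating and lactation. RNA from scraped sections of fixed liver was measured by TempO-Seq, in which pairs of probes are ligated on a transcript, amplified and counted. In tissue of this kind, fewer cells of a type and less RNA per cell cannot be told apart.

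These enzymes sit in the endoplasmic reticulum of the hepatocyte, where a haem iron inserts oxygen into drugs, pollutants, steroids, fatty acids and bile acids. Their genes are known targets of receptors that sense foreign compounds, with AhR acting on family 1, and CAR and PXR acting on parts of subfamilies 2A, 2B, 2C and 3A. Several members are also known to be expressed mainly in one sex of mice, under the control of the pattern of growth hormone secretion, and many are expressed mainly around the central vein of the liver lobule. The 2C, 3A, 2D and 2A genes each stand in clusters of close copies that arose by duplication.

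The upstream sequences of 6 genes are shown because 4 of them (Cyp2c69, Cyp2c67, Cyp3a16 and Cyp3a44) had the lowest fold changes of the genes called lowered in females at 5 mg/kg, and because 2 of their neighbours in the same clusters (Cyp3a41a and Cyp2c70) also fell. Each is 150 bases of the coding strand, 5′ to 3′, from RefSeq (build GRCm38.p6), ending just before the outermost start that RefSeq or GENCODE gives the gene. For Cyp2c67, Cyp2c69 and Cyp2c70 that end lies 9, 30 and 47 bases before the RefSeq start. Each gene lies on the minus strand, and the stretches lie at chr5:145469724-145469873, chr5:145720137-145720286, chr5:145805875-145806024, chr19:39649052-39649201, chr19:39886800-39886949 and chr19:40187334-40187483 in the order printed. Capitals mark the letters CAAAGTCCA (a binding sequence of HNF4A), ATTGAT (HNF6) and AGGTCA (a core sequence of nuclear receptors) on either strand. Other genes of these clusters also fell in females and are not shown. Among them is Cyp2c50, which lacks CAAAGTCCA in the 250 bases before its start.
Cyp3a16: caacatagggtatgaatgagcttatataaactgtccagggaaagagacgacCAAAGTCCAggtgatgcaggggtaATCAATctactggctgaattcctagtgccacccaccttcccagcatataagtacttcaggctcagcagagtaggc
Cyp3a41a: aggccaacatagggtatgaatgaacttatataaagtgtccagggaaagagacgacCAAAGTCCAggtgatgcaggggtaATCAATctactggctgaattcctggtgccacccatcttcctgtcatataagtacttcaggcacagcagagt
Cyp3a44: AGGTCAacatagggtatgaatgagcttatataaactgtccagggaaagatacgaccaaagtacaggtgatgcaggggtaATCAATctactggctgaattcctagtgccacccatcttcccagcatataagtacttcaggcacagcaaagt
Cyp2c67: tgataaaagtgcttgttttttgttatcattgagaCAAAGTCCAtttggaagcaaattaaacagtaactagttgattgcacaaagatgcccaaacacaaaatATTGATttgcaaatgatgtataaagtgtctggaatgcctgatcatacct
Cyp2c69: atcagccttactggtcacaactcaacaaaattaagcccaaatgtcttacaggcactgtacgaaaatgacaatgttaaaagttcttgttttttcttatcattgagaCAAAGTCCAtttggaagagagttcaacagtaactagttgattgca
Cyp2c70: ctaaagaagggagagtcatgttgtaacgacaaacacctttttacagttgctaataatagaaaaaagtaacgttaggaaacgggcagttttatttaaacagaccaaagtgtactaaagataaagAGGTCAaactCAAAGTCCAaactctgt
A match is a description of the letters and not a site of binding. RefSeq upstream sequence was found for 47 of the 56 genes. Over the 250 bases before the RefSeq start, which reach beyond the printed stretches, both strands read, CAAAGTCCA was found in 10 of the 47 (Cyp2c40, Cyp2c65, Cyp2c67, Cyp2c68, Cyp2c69, Cyp2c70, Cyp3a11, Cyp3a16, Cyp3a41a and Cyp3a41b), and in 0.384% of all 32851 mouse promoters. ATTGAT was found in 11 against 6.72% of all promoters, and AGGTCA in 11 against 14% of all. The letters GCGTG, which AhR binds, were found in 7 against 28.2% of all, Cyp1a1 and Cyp1b1 among them. TTCNNNGAA, read by STAT5, was found in 2 against 7.02% of all, and TTGCGCAA, read by C/EBP, in 0 against 0.164% of all. Upstream sequences of the copies resemble each other (93.9% identity over 246 bases between Cyp3a16 and Cyp3a41a, 93% over 200 bases between Cyp2c67 and Cyp2c69), so that these genes are not separate instances of a motif. Of the 10 genes with CAAAGTCCA, 8 were lowered in females at 5 mg/kg and 4 in males, against 8 and 10 of the 29 tested genes without it. With ATTGAT, 9 of 10 tested genes were lowered in females and 4 in males, against 7 and 10 of 29 without it. With AGGTCA, these were 4 and 5 of 9, against 12 and 9 of 30. With GCGTG, 1 of 4 was lowered in each sex, against 15 and 13 of 35. Close copies were counted one by one in these numbers, so the genes are not independent. Lowered shares among all mouse genes with each motif were not taken, and a link of these letters to the fall was not tested.

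Total counts ranged from 2101495 to 10548222 per male and from 7952605 to 13878254 per female. In all, 4 males had fewer than 5000000 counts, and 2 of these were among the 4 males given 5 mg/kg (replicates 1 and 3). Levels are given as CPM, the usual scaling of a count by its library size, here with TMM factors. They are compared between mice and never between genes, because each probe has its own efficiency. A gene was called changed where the adjusted p of edgeR's quasi-likelihood test (Benjamini-Hochberg) was under 0.10. Log2 fold changes are given with their standard error.

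At 5 mg/kg, P450 genes fell in both sexes. In males, 18 of the 45 tested genes were lowered and 4 were raised, where 8.86% and 4.65% of all 12996 genes tested were. In females, 18 were lowered and 0 raised, against 2.51% and 2.42% of all genes. Without adjustment, the test gave a p under 0.05 for 23 of the 45 in males (24.2% of all genes) and 22 in females (13.5% of all genes), and DESeq2 also called 0 raised in females. On the log2 scale the middle value of the 45 changes was -0.74 for males and -1.05 for females, against -0.11 and -0.02 for all genes. With the genes that had no count in one of the groups and more than 3 in the other set to the limit that their counts allow (4 in males and 2 in females), the medians were also -0.74 and -1.05. Each limit lay on the same side of the median as the fitted value, so the medians could not move and this is no check of them. Among the genes with a mean of at least 10 CPM over all mice, 14 of 30 were lowered in males and 18 of 30 in females. The share over all genes of that level was not taken, so the 8.86% and 2.51% above are not a background for these counts. A gene with counts mainly in 1 group could pass the filter on low counts through that group alone, so these numbers describe the genes that passed and not the whole family. With the 4 shallow males left out, which left 2 males at 5 mg/kg, 12 genes were lowered in males; the calls of Cyp2c40, Cyp2d12, Cyp2f2, Cyp2u1, Cyp3a41b and Cyp3a59 did not pass.

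Of the 18 genes lowered in each sex, 11 were lowered in both, which is 61.1% of each list: Cyp1a2, Cyp2c29, Cyp2c40, Cyp2c50, Cyp2c54, Cyp2c68, Cyp2c70, Cyp2d10, Cyp2d22, Cyp2d26 and Cyp3a41b. The same overlap over all genes was not taken, so this share has no background and is not read as a trait of the P450 genes. The summed level of the 56 genes went from 19012 ± 4205 CPM in control males (SD, n = 5) to 9478 ± 1427 at 5 mg/kg (n = 4). In females it went from 30108 ± 4332 (n = 5) to 16329 ± 3932 (n = 4). In each sex the highest of the 5 mg/kg mice was below the lowest control, at 10941 against 14074 CPM in males and 20799 against 23687 in females.

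**Figure D1:**
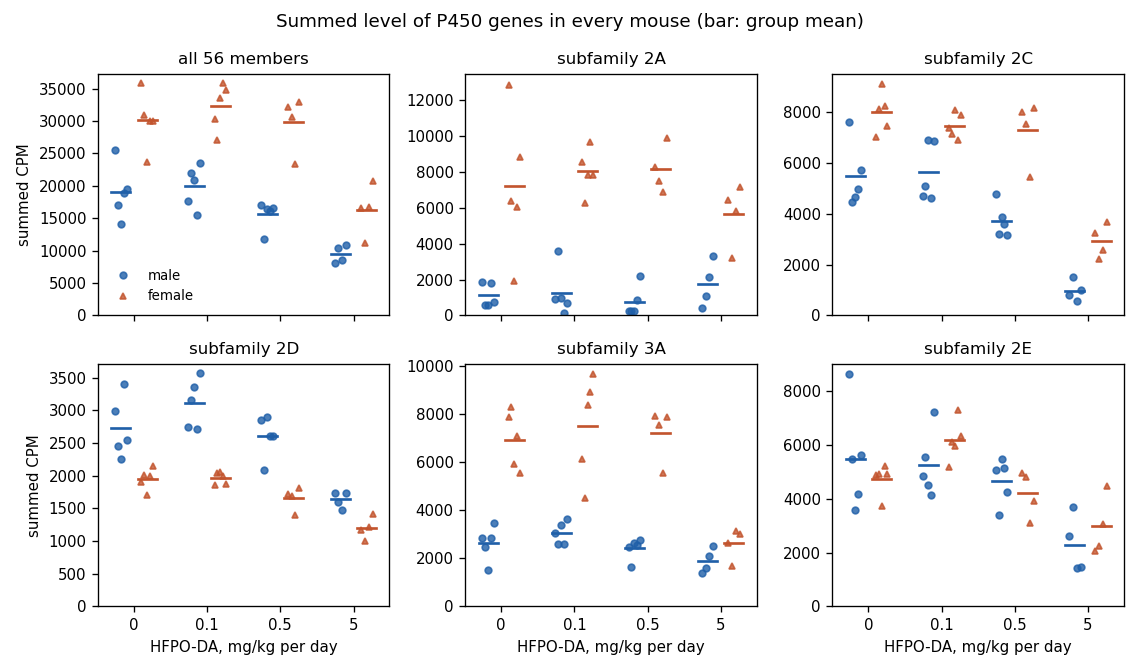
Summed CPM of the 56 P450 genes and of 5 subfamilies (vertical axes, linear from 0) in every mouse at each dose of HFPO-DA (horizontal axis, mg/kg per day), with males as circles, females as triangles and bars at group means. The 2C sum at 5 mg/kg lies between 553 and 1512 CPM in males and between 2218 and 3677 CPM in females, below every control of the same sex.

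**Figure D2:**
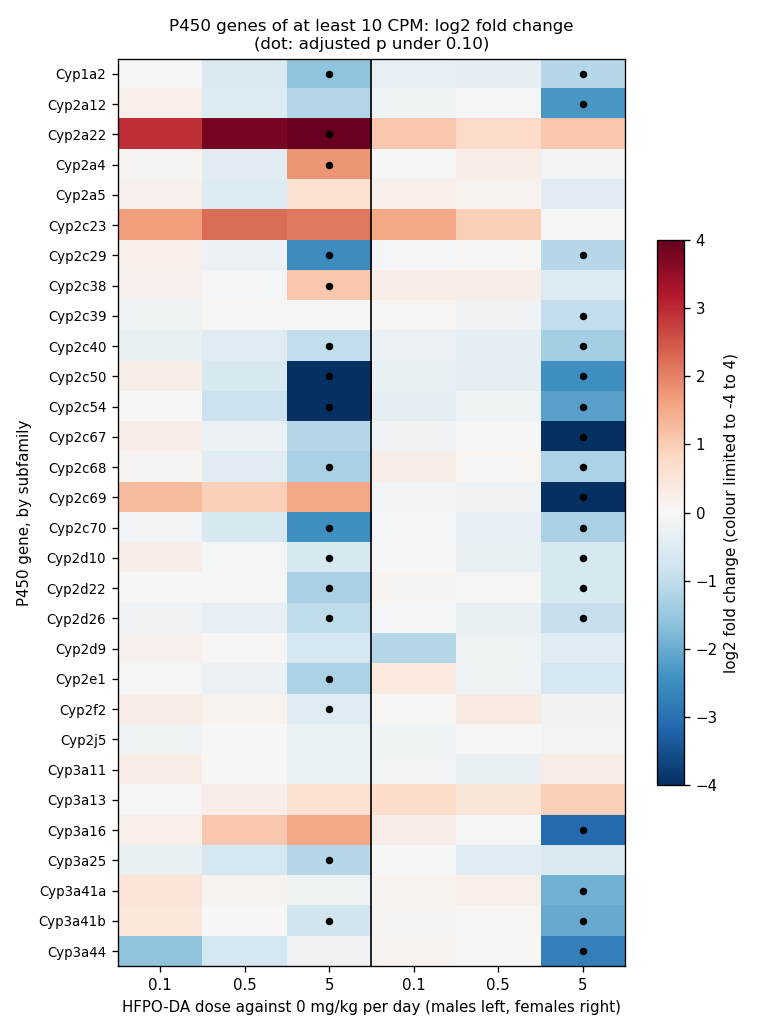
Log2 fold change of the 30 P450 genes with a mean of at least 10 CPM (rows, by subfamily) at each dose against the controls of the same sex (columns, mg/kg per day), with blue for lower and red for higher and a dot where the adjusted p was under 0.10. Dots appear at 5 mg/kg and at neither lower dose, 17 in males and 18 in females.

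The 2C genes held the lowest fold changes among the genes of at least 10 CPM, Cyp2c50 and Cyp2c54 in males and Cyp2c69 and Cyp2c67 in females. The subfamily includes enzymes that oxidise arachidonic and linoleic acid, retinoids and bile acids. Of 15 genes, 14 were tested. In males, 6 were lowered and 1 raised (8.86% and 4.65% of all genes were), and in females 9 were lowered (2.51% of all genes). The 2C genes lie on chromosome 19 of GRCm38, 14 of them between bases 39007019 and 40187333 and Cyp2c23 apart from them.

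Cyp2c54, an epoxygenase, was measured at 2276, 2478, 2546, 2893 and 4191 CPM in the control males. At 5 mg/kg it was measured at 73.1, 76.9, 92.4 and 419.9 CPM. In females, the controls held 1799, 2375, 2454, 2622 and 4147 CPM, and the mice at 5 mg/kg 340.1, 598, 701 and 729 CPM. All dosed mice were below all controls of their sex, and male replicate 2 held several times the level of the other 3 males. The log2 fold change was -4.11 ± 0.40 in males (17.3-fold lower, adjusted p = 5.77e-10) and -2.18 ± 0.36 in females (4.53-fold lower, adjusted p = 6.15e-05). The fall was smaller in females by 1.93 ± 0.49 (adjusted p = 0.062), and that difference was lost in 12 of 46 alternative settings.

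Its close copy Cyp2c50 (95% identity of the transcripts) fell in both sexes on a lower count. Control males held between 32.4 and 52.5 CPM and the males at 5 mg/kg between 0 and 3.86 CPM, lower by a log2 value of -4.18 ± 0.42 (adjusted p = 1.02e-09). Females went from between 48.8 and 82.4 CPM to between 5.75 and 19.2 CPM, by -2.47 ± 0.36 (adjusted p = 5.51e-06). These changes differed by 1.71 ± 0.51, which did not pass (adjusted p = 0.172). Another copy, Cyp2c37, held 3.34 ± 2.36 CPM in control males and 3.51 ± 1.78 in control females (SD, n = 5 each) and was not called in either sex. Its intervals were wide, from -1.57 to 1.48 in males and from -2.71 to 0.39 in females on the log2 scale. How the reads of such copies were divided between their probes is uncertain.

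Cyp2c29, a textbook target of CAR, was measured at 847, 1044, 1196, 1824 and 1887 CPM in control males and at 181, 193, 253 and 321 CPM at 5 mg/kg. In females the corresponding values were 874, 1133, 1395, 1441 and 1486 CPM, and 414, 506, 638 and 748 CPM. No dosed mouse overlapped with the controls in either sex. The log2 fold change was -2.52 ± 0.23 for males (adjusted p = 9.35e-11) and -1.13 ± 0.22 for females (adjusted p = 0.000437). The 2 changes differed by 1.38 ± 0.30 (adjusted p = 0.0165). The 3 tested probes of Cyp2c29, of 4 on the panel, gave log2 fold changes of -2.52, -2.61 and -2.20 in males and of -1.13, -1.30 and -1.30 in females.

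Cyp2c70, which makes the muricholic acids of the mouse, held 593, 633, 741, 977 and 1099 CPM in control males and 81.4, 148, 161 and 201 CPM at 5 mg/kg. In females it went from 1194, 1381, 1533, 1608 and 1840.2 CPM to 518, 522, 692 and 708 CPM. Again the groups did not overlap. The log2 fold changes were -2.45 ± 0.24 (adjusted p = 7.48e-10) and -1.31 ± 0.23 (adjusted p = 0.000136), and the difference between the sexes, 1.14 ± 0.32, did not pass (adjusted p = 0.117).

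Next to these on the chromosome are the 4 copies Cyp2c67, Cyp2c68, Cyp2c40 and Cyp2c69, which are 97% to 98% identical to Cyp2c67 or Cyp2c40 in transcript sequence. Of their 50-base windows, 52.8%, 43.3%, 72.1% and 54.8%, in that order, occur in other transcripts. Which copy each probe reads is therefore uncertain. Cyp2c67 held 29.1, 132, 139.6, 183 and 332 CPM in control females and 0.878, 5.29, 8.68 and 20.4 CPM at 5 mg/kg. That is a log2 fold change of -4.22 ± 0.59 (18.7-fold lower, adjusted p = 2.15e-06). Males went from 38.4 ± 17.4 CPM (SD, n = 5) to 17.3 ± 7.65 (n = 4), by -1.13 ± 0.52, which did not pass (adjusted p = 0.176). The female change was lower than the male change by -3.09 ± 0.73 (adjusted p = 0.0377), which did not pass in 3 of 46 settings, the robust fit (adjusted p = 0.15) and those without female replicate 2 of 5 mg/kg or control female 3 (0.105 and 0.113).

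Cyp2c69 had few counts in males. The 5 control males held 4 counts in all (at most 0.266 CPM), while control females held 15.8, 52.3, 77.8, 92.2 and 161 CPM. At 5 mg/kg females held 0.878, 1.55, 3.38 and 4.25 CPM, with a change (log2) of -4.98 ± 0.54 (31.7-fold lower, adjusted p = 7.81e-09). The 4 males at 5 mg/kg held 7 counts in all, and the fitted change in males, 1.56 ± 1.13, rests on these. Female and male changes differed (-6.55 ± 1.37, adjusted p = 0.0129), but did not pass with the shallow males left out (adjusted p = 0.381) or without male replicate 3 of 5 mg/kg alone (adjusted p = 0.148). Cyp2c68 and Cyp2c40 fell in both sexes, Cyp2c68 by -1.29 ± 0.29 in males and -1.25 ± 0.28 in females. The male call of Cyp2c40 (-0.98, adjusted p = 0.0646) was lost in 9 of 47 settings, among them without male replicate 1, 2 or 3 of 5 mg/kg or control male 5 (adjusted p from 0.107 to 0.129). The 95% interval of the difference for Cyp2c68 ran from -0.72 to 0.80.

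The pair Cyp2c38 and Cyp2c39 (93.8% identity) did otherwise. Cyp2c39, which hydroxylates retinoic acid, fell in females, from 1861, 1926, 1997, 2133 and 2219 CPM to 787, 885, 1087 and 1325 CPM (log2 fold change -0.99 ± 0.31, adjusted p = 0.0745). That call was lost in 8 of 47 settings, among them without female replicate 1, 2 or 3 of 5 mg/kg or control female 2, 4 or 5 (adjusted p from 0.108 to 0.239). In males it was 0.05 ± 0.31 (95% interval -0.56 to 0.65). Cyp2c38 was raised in males by 1.06 ± 0.38 (adjusted p = 0.0754), with 4.01 to 19.3 CPM in the controls and 6.13, 14.3, 34.3 and 47.9 CPM at 5 mg/kg. The groups overlapped, and this call was lost in 7 of 47 settings, among them without male replicate 2 or 4 of 5 mg/kg or control male 2, 3 or 4 (0.55 without replicate 4, adjusted p = 0.39). The 2 lower males at 5 mg/kg for both genes were the shallow replicates 1 and 3, at 119.8 and 103 CPM against 410.2 and 403 CPM for Cyp2c39. The part of depth in this was not tested. The remaining tested 2C genes (Cyp2c23, Cyp2c55 and Cyp2c65) were not called at any dose.

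**Figure D3:**
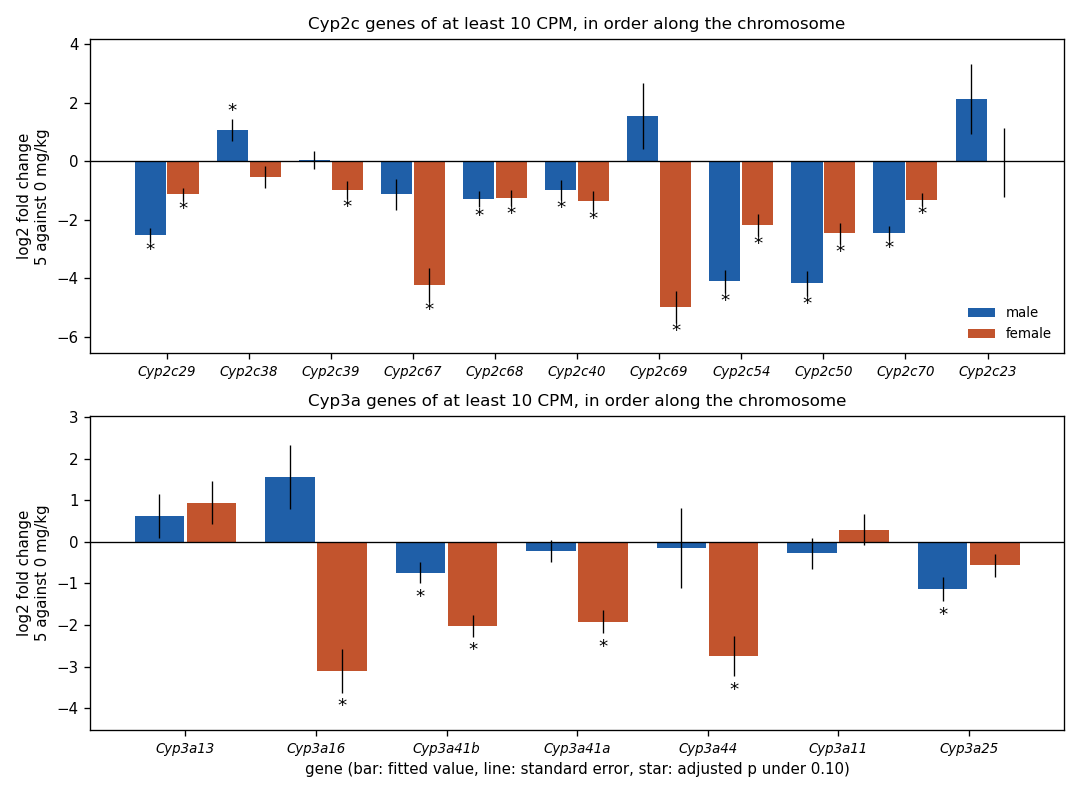
Log2 fold change at 5 against 0 mg/kg (vertical axes) for the Cyp2c and Cyp3a genes of at least 10 CPM, in their order along chromosomes 19 and 5, with bars for the fitted value in males (blue) and females (orange), lines for its standard error and stars for an adjusted p under 0.10. The bars of Cyp2c29 and Cyp2c54 reach lower in males and those of Cyp2c67, Cyp2c69, Cyp3a16, Cyp3a41a and Cyp3a41b lower in females, the 7 genes shown whose difference between the sexes passed the test.

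Among the 3A genes, the copies that are typical of females fell in females, and Cyp3a11 was not called. These enzymes metabolise steroids and a wide range of drugs. Of 9 genes, 8 were tested, 4 were lowered in females and 3 in males, against 2.51% and 8.86% of all genes. They lie on chromosome 5, from Cyp3a13 at base 137892932 to Cyp3a59, which ends at base 146113287. The summed 3A level was 6950.1 ± 1203 CPM in control females (SD, n = 5) and 2625 ± 657 at 5 mg/kg (n = 4). In males it was 2631 ± 714 CPM and 1899.8 ± 496, and here the mice at 5 mg/kg overlapped with the controls. The sum holds both Cyp3a41a and Cyp3a41b, near-identical copies whose probes may read the same transcripts.

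Cyp3a41a was measured at 1937, 2018, 2689, 3219 and 3824 CPM in control females and at 363, 780.0, 819 and 936 CPM at 5 mg/kg. In males it was measured at 150.2 to 330.2 CPM and at 149, 179.7, 239 and 292 CPM. The female groups did not overlap and the male groups did. The log2 fold change was -1.92 ± 0.28 in females (3.78-fold lower, adjusted p = 4.48e-06) and -0.21 ± 0.26 in males (adjusted p = 0.718). The difference was -1.71 ± 0.37 (adjusted p = 0.0198), and it passed in each of the 46 alternative settings.

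Cyp3a41b is 99.9% identical to Cyp3a41a, and 93.5% of its 50-base windows occur in other transcripts, so the counts of the pair are uncertain as to the gene. It fell in females from 2568 ± 504 CPM (SD, n = 5) to 632 ± 199.6 (n = 4), by -2.02 ± 0.26 (adjusted p = 4.13e-07), and in males from 483 ± 149.7 to 289.6 ± 130.1, by -0.74 ± 0.25 (adjusted p = 0.054). The male call was lost in 7 of 47 settings, among them without male replicate 1, 2 or 3 of 5 mg/kg or control male 1 or 5 (adjusted p from 0.103 to 0.163). A second probe of Cyp3a41b gave -2.27 ± 0.32 in females and -0.60 ± 0.30 in males, the latter not called (adjusted p = 0.222). Its difference between the sexes, -1.28 ± 0.35 (adjusted p = 0.0961), was lost in 29 of 46 settings.

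Cyp3a16 and Cyp3a44 were expressed in females, with few counts in males. Cyp3a16 held 233, 258, 302, 381 and 454 CPM in control females and 15.2, 40.8, 44.0 and 51.6 CPM at 5 mg/kg. That is a log2 change of -3.10 ± 0.53 (8.58-fold lower, adjusted p = 8.1e-05). Control males held at most 1.33 CPM and the males at 5 mg/kg at most 4.33 CPM. Female and male changes differed by -4.66 ± 0.92 (adjusted p = 0.00799), and this did not pass without male replicate 4 of 5 mg/kg (-3.65, adjusted p = 0.141). The male change in this was 1.56 ± 0.77, on few counts, and was not called (adjusted p = 0.215). A second Cyp3a16 probe gave -0.19 ± 1.49 in males and -4.06 ± 0.92 in females, so the size of the difference is uncertain. Cyp3a44 went from 47.0, 67.8, 105, 116 and 123 CPM to 3.34, 5.38, 15.8 and 30.1 CPM in females, by -2.75 ± 0.48 (adjusted p = 0.000145). Males held at most 0.75 CPM in either group, and the difference between the sexes did not pass (-2.60 ± 1.20, adjusted p = 0.429).

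Cyp3a11, the gene of this subfamily best known as a target of PXR, was not called at any dose. Control males held 601, 1090.4, 1132, 1424 and 1604 CPM and males at 5 mg/kg 593, 806, 1181 and 1293 CPM. Control females held 171, 469.7, 578, 825 and 867 CPM and females at 5 mg/kg 516, 580.2, 618 and 1136 CPM. The groups overlapped in both sexes, and the 95% intervals of the log2 fold change ran from -1.01 to 0.46 in males and from -0.44 to 1.02 in females. Cyp3a13 was also not called, with fitted changes of 0.62 ± 0.52 in males and 0.94 ± 0.52 in females. Cyp3a25 was lowered in males, from 637 ± 183 CPM (SD, n = 5) to 289 ± 52.5 (n = 4; -1.14 ± 0.29, adjusted p = 0.00799), and had -0.57 ± 0.28 in females (adjusted p = 0.419). Cyp3a59 had 61 counts in the control males and 0 in the males at 5 mg/kg, at least 12-fold lower against a floor of 3 counts over the group. The call of Cyp3a59 was lost in 7 of 46 settings, among them without any of the 4 males at 5 mg/kg (adjusted p from 0.107 to 0.118).

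**Figure D4:**
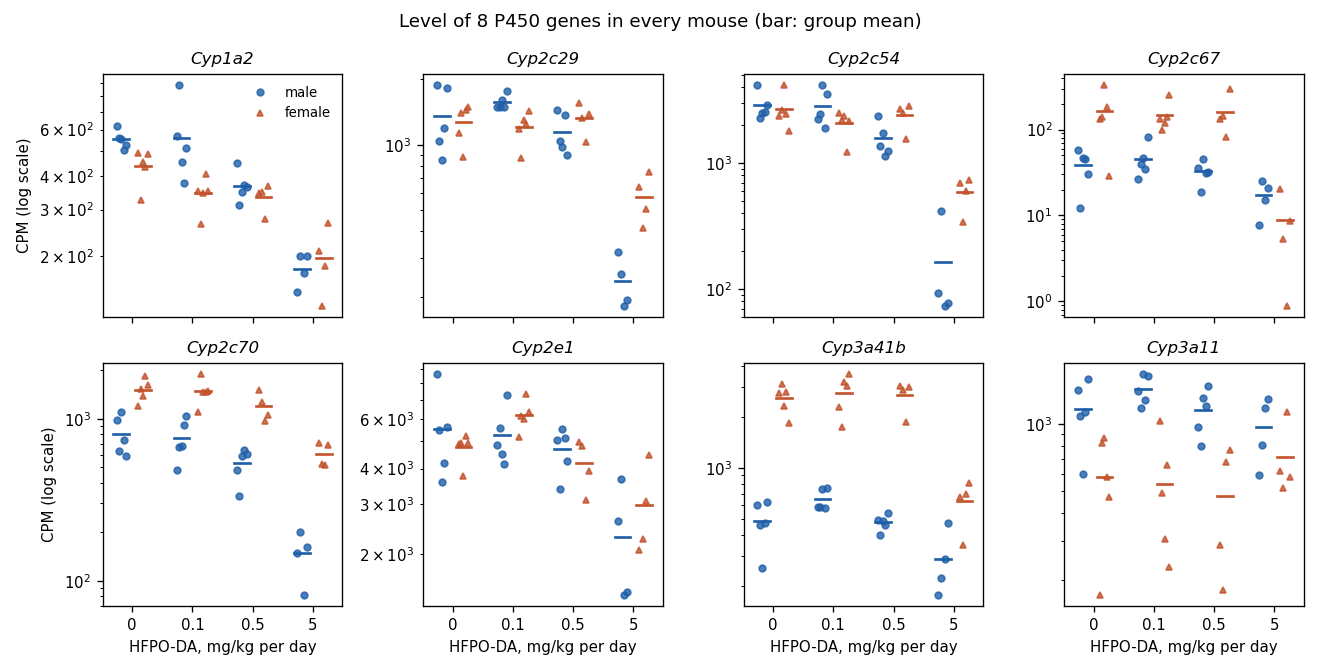
CPM of 8 P450 genes (vertical axes, log scale) in every mouse by dose of HFPO-DA (horizontal axis, mg/kg per day), with males as circles, females as triangles and bars at group means. At 5 mg/kg, Cyp2c54 lies between 73.1 and 419.9 CPM in males against 2276 to 4191 CPM in their controls, while for Cyp3a11 the dosed and control mice overlap in both sexes.

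Of the 9 Cyp2d genes 8 were tested, and 5 were lowered in males and 3 in females, against 8.86% and 2.51% of all genes. Cyp2d10 went from 1710.3 ± 406 to 1104 ± 75.3 CPM in males and from 1260.0 ± 56.9 to 802 ± 116 CPM in females (SD, n = 5 and 4). Its log2 fold changes were -0.63 ± 0.16 (adjusted p = 0.00696) and -0.65 ± 0.16 (adjusted p = 0.00859), with a difference of -0.02 (95% interval -0.45 to 0.41). Cyp2d22, the gene most often set beside human CYP2D6, had changes of -1.29 ± 0.19 for males (adjusted p = 3.97e-06) and -0.64 ± 0.18 for females (adjusted p = 0.037), both called. The female call of Cyp2d22 was lost in 4 of 47 settings, without female replicate 1, 2 or 3 of 5 mg/kg or control female 5 (-0.48 without the last, adjusted p = 0.209). Those of Cyp2d26 were -1.02 ± 0.21 and -0.91 ± 0.21 (adjusted p = 0.000721 and 0.00381). Cyp2d40 was lowered in males (-3.23 ± 0.77, adjusted p = 0.00429) on 388 counts in the controls and 30 counts at 5 mg/kg. Cyp2d12 had 91 and 0 counts in the same groups, at least 17.9-fold lower.

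Cyp2d9, a testosterone hydroxylase typical of male liver, was not called at 5 mg/kg in either sex. Males held 409, 418, 496, 529 and 605 CPM as controls and 243, 279, 314 and 385 CPM at 5 mg/kg. Although these groups did not overlap, the log2 fold change was -0.69 ± 0.47 (adjusted p = 0.407). Every dosed mouse was below every control for 12 of the 45 tested P450 genes in males and for 17 in females, against 5.05% and 4.7% of all genes. Every dosed mouse was above every control for 1 P450 gene in males (Cyp2a22) and 0 in females, where 2.96% and 4.69% of all genes were.

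Cyp2e1, which oxidises ethanol and small solvents, held 3582, 4173, 5484, 5618 and 8647 CPM in control males and 1432, 1475, 2611 and 3684 CPM at 5 mg/kg. The groups overlapped by a single male. The log2 fold change was -1.26 ± 0.25 (adjusted p = 0.000421), and the 2 other probes gave -1.02 ± 0.20 and -1.17 ± 0.25. In females it was -0.68 ± 0.24 (adjusted p = 0.14), with -0.30 and 0.08 on the other probes, and the difference between the sexes did not pass (0.58 ± 0.34, adjusted p = 0.57). Cyp2f2, which activates naphthalene, went from 523 ± 102 to 363 ± 33.3 CPM in males (-0.53 ± 0.20, adjusted p = 0.0881), a call lost in 13 of 47 settings, and had -0.14 ± 0.20 in females.

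The family 1 genes are the classical targets of AhR. Cyp1a2, which acts on caffeine and aromatic amines, held 504, 524, 554, 559.6 and 617 CPM in control males and 146, 173, 199.9 and 200.1 CPM at 5 mg/kg. In females it held 325, 435, 452, 484 and 489.5 CPM and 129.8, 184, 209 and 268 CPM. No dosed mouse overlapped with the controls. The log2 fold change was -1.62 ± 0.20 in males (3.06-fold lower, adjusted p = 1.06e-07) and -1.14 ± 0.19 in females (2.21-fold lower, adjusted p = 8e-05). A second probe gave -1.45 ± 0.25 and -0.88 ± 0.24, both called. Cyp1a1 was close to the limit of counting, with 3 counts in the control males, 0 in the males at 5 mg/kg, and 18 and 23 counts in the females. Cyp1b1 was not called in either sex, at 2.77 ± 1.74 and 1.97 ± 2.32 CPM in males and 1.15 ± 0.816 and 6.23 ± 4.32 CPM in females (SD, n = 5 and 4).

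The 2A genes did not fall as a group in males, and this subfamily held 2 of the 4 raised genes. Cyp2a22 had 4 counts in the 5 control males and 282 counts in the 4 males at 5 mg/kg. By mouse, this is 0, 0, 0.133, 0.134 and 0.24 CPM against 9.27, 13.3, 14.6 and 14.6 CPM. The log2 fold change was 6.77 ± 1.04 (adjusted p = 8.92e-06), and its size depends on these few control counts. Females held 24.8 ± 21.3 CPM as controls (SD, n = 5) and 52.5 ± 34.2 at 5 mg/kg (n = 4), with groups that overlapped (1.08 ± 0.65, adjusted p = 0.593). The change in females was lower than that in males by -5.68 ± 1.29 (adjusted p = 0.0256; 0.116 in the robust fit).

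Cyp2a4, a steroid hydroxylase, was raised in males, from 25.7, 27.2, 45.9, 76.4 and 100.3 CPM to 60.6, 83.5, 282 and 323 CPM (1.76 ± 0.57, adjusted p = 0.0445). The groups overlapped, a second probe was not called (1.22 ± 0.52, adjusted p = 0.147), and the call was lost in 6 of 47 settings, among them without male replicate 3 or 4 of 5 mg/kg or control male 2 or 3. In females it was -0.11 ± 0.56. Its copy Cyp2a5 (98.3% identity), a coumarin hydroxylase, varied widely between mice of the same group, from 1377 to 10206 CPM in control females, and was not called (0.60 ± 0.61 in males and -0.42 ± 0.61 in females). Of the 50-base windows of Cyp2a4 and Cyp2a5, 38% and 40.8% occur in other transcripts, so their counts are uncertain as to the gene. Cyp2a12 was lowered in females, from 30.1, 69.5, 91.2, 110.1 and 168 CPM to 16.1, 16.7, 16.96 and 25.1 CPM (-2.32 ± 0.67, adjusted p = 0.0379). That call was lost in 5 of 47 settings, the robust fit and those without female replicate 1, 2 or 4 of 5 mg/kg or control female 5 (adjusted p from 0.105 to 0.123). In males at 5 mg/kg it was at 0.707 and 0.75 CPM in the shallow replicates 1 and 3 and at 55.5 and 66.3 CPM in replicates 2 and 4 (adjusted p = 0.27), and the part of depth in this was not tested.

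Among the 2J genes, Cyp2j5, an epoxygenase of liver and kidney, was at 437.5 ± 45.8 and 360.5 ± 82.5 CPM in males and at 510.2 ± 83.4 and 474 ± 40.3 CPM in females (SD, n = 5 and 4). It was not called, with 95% intervals of -0.62 to 0.06 and -0.44 to 0.23. A second probe of Cyp2j5 had the opposite sign, at 0.31 ± 0.19 in males and 0.18 ± 0.19 in females, and was not called either. Cyp2j9 had 0 counts in both control groups. In the males at 5 mg/kg it had 40 counts, in 3 of 4 mice, and was called raised (adjusted p = 0.0756, at least 22.6-fold higher against a floor of 3 counts over the group). In the females at 5 mg/kg it had 18 counts, all in 1 mouse, and was not called (adjusted p = 0.275). Cyp2u1, which oxidises long-chain fatty acids, had 54 counts in control males and 0 at 5 mg/kg (at least 10.6-fold lower, adjusted p = 0.0776), and 10 and 0 counts in the females. Cyp2r1, the vitamin D hydroxylase, was not called (0.26 ± 0.71 and -0.10 ± 0.70). The calls of Cyp2j9 and Cyp2u1 were lost in 10 of 44 and 9 of 45 settings. Those with too few counts to test were Cyp2c66, Cyp2d34, Cyp2g1, Cyp2j7, Cyp2j8, Cyp2j11, Cyp2j12, Cyp2j13, Cyp2t4, Cyp2w1 and Cyp3a57.

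**Figure D5:**
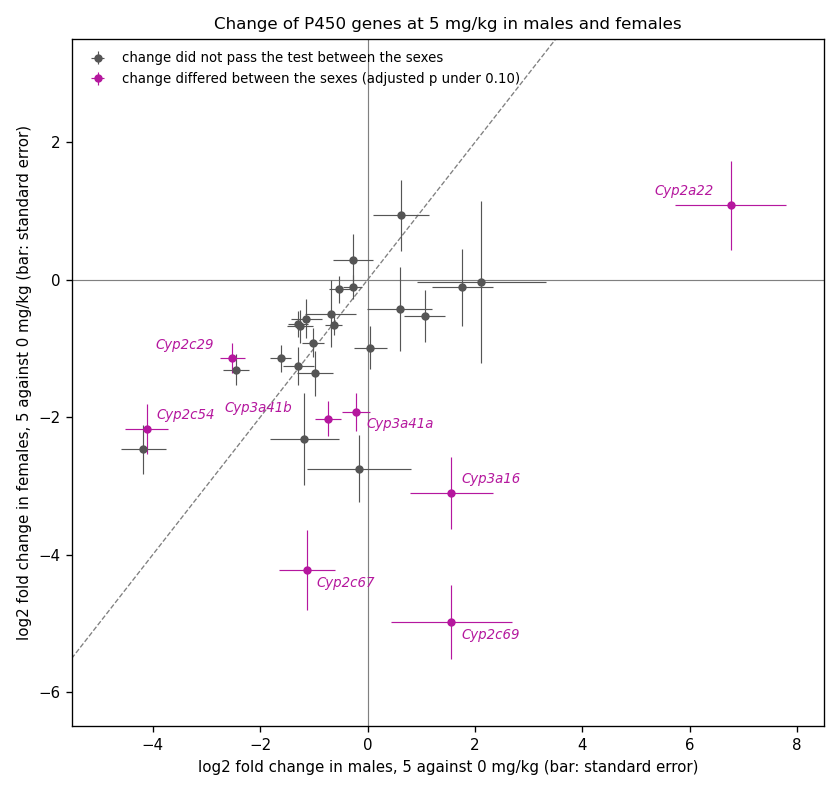
Log2 fold change at 5 against 0 mg/kg in males (horizontal axis) and in females (vertical axis) for the 30 P450 genes with a mean of at least 10 CPM, with lines for standard errors and a dashed line where both are equal. The 8 genes whose change differed between the sexes (adjusted p under 0.10) are named in purple.

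The change at 5 mg/kg differed between the sexes for 8 of the 45 genes, against 0.623% of all genes. Cyp2c29 and Cyp2c54 fell further in males. The female change was lower than the male change for Cyp2a22, Cyp2c67, Cyp2c69, Cyp3a16, Cyp3a41a and Cyp3a41b. At 0.1 and 0.5 mg/kg the test called 0 of the 45, as did DESeq2, against 0% and 0.0154% of all genes. An unadjusted p under 0.05 was given to 2 and 1 of the 45, against 4.74% and 5.29% of all genes.

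Among the controls, 14 of the 45 genes were higher in females (1.51% of all genes were) and 2 were higher in males (1.34% of all). The first group held Cyp2c69 (by 9.39 ± 0.69 on the log2 scale), Cyp3a16 (8.92 ± 0.68), Cyp3a44 (7.91 ± 0.62), Cyp2a22 (7.71 ± 1.01), Cyp2a4 (4.81 ± 0.62), Cyp3a41a (3.46 ± 0.27), Cyp2c39 (3.01 ± 0.31), Cyp2a5, Cyp3a41b, Cyp2c67, Cyp2c38, Cyp2c40, Cyp2c70 and Cyp2d26. The second held Cyp2d9 (-4.95 ± 0.52) and Cyp2f2 (-0.87 ± 0.18). Of 9 genes listed as typical of female mouse liver, 8 were tested and each was higher in control females. This comparison shares its controls with those of dose, so the values are set side by side. The list was chosen with earlier results of these data known, so its counts describe the list and are not separate support. At 5 mg/kg, 7 of these 8 genes were lowered in females (Cyp2a4 was not), against 2.51% of all genes. Their middle change was -1.97 (log2). In males 2 were lowered and 1 raised, against 8.86% and 4.65% of all genes, and the middle change was -0.05. Cyp2c69, Cyp3a16 and Cyp3a44 had few counts in control males, so a fall there could hardly be seen. Their fitted male changes, 1.56, 1.56 and -0.15, enter that middle value, so it does not show a steady level. The other genes higher in control females were mixed at 5 mg/kg. Cyp2c67, Cyp2c70 and Cyp2d26 were lowered in females, and Cyp2a5, Cyp2a22 and Cyp2c38 were not called there. In males Cyp2a22 and Cyp2c38 were raised, Cyp2c70 and Cyp2d26 were lowered, and Cyp2a5 and Cyp2c67 were not called.

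At 0.1 and 0.5 mg/kg, 0 of the 45 genes were called in either sex by edgeR's quasi-likelihood test, where 0% of all genes were at 0.1 mg/kg, and 0.7% (males) and 0.131% (females) at 0.5 mg/kg. In males at 0.5 mg/kg, 9 of the 45 had an unadjusted p under 0.05, against 10.4% of all genes, and the smallest adjusted p was 0.168. These were Cyp1a2, Cyp2c50, Cyp2c54, Cyp2c55, Cyp2c70, Cyp2d11 and Cyp3a25, with lower values than the controls, and Cyp2a22 and Cyp2j9, with higher ones. Cyp1a2 held 312, 349, 365, 370.1 and 450.1 CPM at that dose, each below the lowest control male at 504 CPM, with a log2 fold change of -0.58 (adjusted p = 0.178). Cyp2c54 held 1573 ± 501 CPM (SD, n = 5; -0.87, adjusted p = 0.325), and its groups overlapped. DESeq2 called 1 gene raised and 1 lowered in males at this dose. In females, 0 of the 45 had an unadjusted p under 0.05 at 0.5 mg/kg (4.77% of all genes did) and 1 at 0.1 mg/kg (2.64% of all genes), and DESeq2 called 0 at both doses. In males at 0.1 mg/kg, 2 of the 45 had an unadjusted p under 0.05 (7.39% of all genes), and DESeq2 called 0.

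The genes that serve these enzymes moved in both directions. Of 18 genes that supply electrons or haem, each tested, 1 was raised and 5 were lowered in males at 5 mg/kg, and 3 were raised and 1 lowered in females. Of all genes, 4.65% were raised and 8.86% lowered in males, and 2.42% and 2.51% in females. With counts this small, they are not read as a result about the list. Cyb5a, the cytochrome b5 of the endoplasmic reticulum, fell from 293 ± 41.1 to 185 ± 36.3 CPM in males and from 404 ± 25.8 to 276 ± 39.2 CPM in females (SD, n = 5 and 4; adjusted p = 0.00551 and 0.0431). Cyb5b, its mitochondrial form, rose from 1087 ± 154 to 1644 ± 142 CPM and from 756 ± 216 to 1151 ± 53.7 CPM (adjusted p = 0.0259 and 0.0412). Por, the reductase that feeds all microsomal P450s, was not called, at 47.8 ± 23.3 and 56.5 ± 20.5 CPM in males and 63.6 ± 25.4 and 106 ± 27.6 CPM in females. Alas1, the rate-limiting enzyme of haem synthesis, went from between 25.1 and 79.5 CPM to between 11.3 and 32.9 CPM in males (-0.98 ± 0.35, adjusted p = 0.0752). In females it went from between 11.3 and 48.0 CPM to between 49.4 and 103 CPM (1.29 ± 0.34, adjusted p = 0.0177). Female and male changes of Alas1 differed by 2.27 ± 0.49 (adjusted p = 0.0165).

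Among 14 receptors and partner factors, 13 were tested. In males 0 were called by edgeR's quasi-likelihood test at 5 mg/kg (3 had an unadjusted p under 0.05), and in females Rxra, the partner of CAR and PXR, was lowered (-0.55, adjusted p = 0.0437; -0.42 in males, adjusted p = 0.1). The male value of Rxra lay just over the threshold, and the study, with DESeq2, reported Rxra as lowered at 5 mg/kg in both sexes. Nr1i3, the gene of CAR, was at 111 ± 24.9 and 111 ± 16.6 CPM in males and at 186 ± 61.5 and 183 ± 55.1 CPM in females. Nr1i2, the gene of PXR, and Ahr were not called either. Of 17 targets of AhR, CAR or PXR outside the P450s, 16 were tested, with 2 raised (Ugdh and Aldh1a1) and 2 lowered (Sult1d1 and Ces2a) in males. In females 3 were raised (Ugdh, Aldh1a1 and Gadd45b) and 1 lowered (Ces2a). Of all genes, 4.65% were raised and 8.86% lowered in males, and 2.42% and 2.51% in females. These few calls are not read as a result about the targets as a group. Ugdh, which makes the sugar donor for glucuronidation, rose by 1.23 in males and 1.05 in females (adjusted p = 7.23e-05 and 0.000986). Ces2a, a carboxylesterase, fell by 1.42 and 0.68 on the log2 scale (adjusted p = 6.44e-06 and 0.0567). Among the P450s listed as targets of CAR and PXR, 4 of 10 were lowered in males and 3 of 10 in females, and their middle log2 changes were -0.71 and -1.09. These values lie close to those of all 45 tested P450 genes, of which 18 (40%) were lowered in each sex, with middle changes of -0.74 and -1.05.

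Markers of hepatocytes were present in every mouse and also moved with dose. The summed level of 5 measured hepatocyte markers (6 listed) ranged from 14079 to 20089 CPM in control males and from 12618 to 14517 CPM at 5 mg/kg, and from 17539 to 24287 and from 16005 to 18310 CPM in females. The 7 pericentral markers summed to between 586 and 1349 CPM in control males and to between 301 and 533 CPM at 5 mg/kg, and to between 1105 and 1428 and between 381 and 891 CPM in females; 3 of the 7 were lowered in each sex. The 6 periportal markers went from between 3611 and 7980 to between 1933 and 2653 CPM in males, with 4 lowered, and from between 3746 and 8218 to between 2618 and 5626 CPM in females, with 2 lowered. Macrophage, stellate cell, bile duct, lymphocyte, adipocyte and erythroid markers had 0 calls by edgeR's quasi-likelihood test at 5 mg/kg in either sex, with an unadjusted p under 0.05 for 1 stellate cell marker in males, and of the endothelial markers Kdr was lowered in males. Of the markers on the panel, 0 were without counts in all mice. The part of these markers in the fall of the P450 genes was not tested.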

How the data were processed

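Counts of 30146 TempO-Seq probes in 37 mouse livers were used. The authors deposited whole-number counts of reads per probe, not normalized. Their processing notes name bcl2fastq 2.17.1.14 and Bowtie, and the parameters and genome build are not given in the sources used here. The authors had removed 3 of 40 mice. The mice of a group were separate animals.

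Probes were filtered with filterByExpr over the 8 sex-by-dose groups, and 18570 remained. All mice entered one fit with TMM scaling and edgeR 4.0.16's quasi-likelihood test (R 4.3.3), and doses were set against controls of the same sex. The female change minus the male change, and control females against control males, were tested in the same fit. P-values were adjusted (Benjamini-Hochberg) over all tested probes, with calls under 0.10, the rate the study used. Backgrounds were taken over 12996 genes, each read on its highest-count probe. The test was tried on simulated counts first. Bounds and intervals at low counts (95%, floor of 3 counts per group) cover counting error only.

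The genes and lists were chosen with earlier results of these data known. Values are given for genes called at 5 mg/kg (up to 8 per direction and sex), genes called at lower doses or between the sexes, the 5 P450 genes with the highest CPM in each sex's controls and a set of prototype genes. Identities, positions and upstream sequences came from GENCODE M21 and RefSeq (GRCm38.p6). Alternatives were DESeq2 1.42.0 and its size factors, other filters, a robust fit, sexes fitted apart, summed probes, thinned counts, calls at 0.05 and fits without each mouse in turn. Leaving out the 4 males under 5000000 counts was added after seeing the data.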

Additional observations from a re-analysis of the deposited data

Results flagged for a closer look

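Over 200 groups of 4 or 5 values, 12 held a mouse that stood apart from the others of its group by Dixon's criterion, which chance meets in about 1 in 20 groups. Higher mice were 1 female at 5 mg/kg for Cyp2a12 (25.1 CPM, others 16.1 to 16.96 CPM) and for Cyp3a11 (1136 CPM, others 516 to 618 CPM), both replicate 3. Replicate 2 of the males at 0.1 mg/kg was higher for the copies Cyp2a4 (174.6 CPM, others 8.58 to 48.7 CPM) and Cyp2a5 (3292 CPM, others 126.6 to 866 CPM). Also higher were 1 male at 5 mg/kg for Cyp2c54 (419.9 CPM, others 73.1 to 92.4 CPM), 1 female at 0.1 mg/kg for Cyp2c67 (254 CPM, others 98.1 to 139 CPM) and 1 male at 0.5 mg/kg for Cyp3a44 (1.13 CPM, others 0 to 0.307 CPM).

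Lower mice were 1 male at 0.5 mg/kg for Cyp2a12 (27.7 CPM, others 51.8 to 55.9 CPM), 1 female at 0.1 mg/kg for Cyp2c54 (1223 CPM, others 2173 to 2497 CPM) and 1 female at 0.5 mg/kg for Cyp3a41b (1858 CPM, others 2894 to 3051 CPM). Among controls, 1 female was lower for Cyp2e1 (3752 CPM, others 4891 to 5230.1 CPM) and 1 male for Cyp2j5 (357 CPM, others 445.9 to 465 CPM).

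The change at 5 mg/kg differed between the sexes by the test of the difference itself for 8 genes. The female minus male log2 fold change was 1.93 for Cyp2c54 and 1.38 for Cyp2c29. It was -1.71 for Cyp3a41a, -1.28 for Cyp3a41b, -3.09 for Cyp2c67, -4.66 for Cyp3a16, -5.68 for Cyp2a22 and -6.55 for Cyp2c69.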

How the results depend on the processing

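The 18 genes lowered in males at 5 mg/kg numbered 13 to 18 when each mouse was left out in turn, 14 on thinned counts, 13 at a threshold of 0.05 and 12 without the 4 shallow males. The 18 lowered in females numbered 15 to 20 when each mouse was left out. The 4 genes raised in males became 1 with each sex fitted apart, 2 at a threshold of 0.05, and 1 to 4 when each mouse was left out (1 without control male 2 or control male 3, and 2 without male 4 of 5 mg/kg). In males at 0.5 mg/kg, 1 gene was raised and 1 lowered with no filter and by DESeq2, and 0 to 1 were raised when each mouse was left out (1 without control male 4 or control female 2). The 8 genes that differed between the sexes became 4 in the robust fit and 5 to 10 when each mouse was left out (5 without male 3 of 5 mg/kg). The 2 genes higher in control males became 4 by DESeq2, 4 with summed probes, and 2 to 3 when each mouse was left out. The cause of these changes was not tested. Without the 4 shallow males, which left 2 males at 5 mg/kg, the differences between the sexes for Cyp2c54 and Cyp2c69 and the male calls of Cyp2c40, Cyp2d12, Cyp2f2, Cyp2j9, Cyp2u1, Cyp3a41b and Cyp3a59 did not pass. None of the calls named here changed direction in these alternatives. Of 13 genes with several tested probes, 9 in males and 11 in females had the same sign on every probe at 5 mg/kg. The others were Cyp1a1, Cyp2j5, Cyp3a16 and Cyp3a44 in males, and Cyp2e1 and Cyp2j5 in females. No paired analysis was possible because the labels give the groups no shared replicate numbers. Depth limits the genes under a few CPM, Cyp1a1 and the 11 untested genes among them.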
